A study of Homo sapiens with 6 samples.

Results

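The AP-1 transcription factors described here are 10 genes chosen by symbol, FOS, FOSB, FOSL1, FOSL2, JUN, JUNB, JUND, ATF3, MAFF and BATF3, out of the 63677 genes of the count table. All 10 were found and all 10 passed the filter on low counts, so each was tested. mRNA-seq libraries were made from HEK293 cells, a human embryonic kidney cell line, collected in TRIzol 48 hours after siRNA transfection with Lipofectamine RNAiMAX. One group received an siRNA against circRAB3IP (called siRAB3IP below), another an siRNA against circCAMSAP1 (siCAMSAP1), and the third the NTC siRNA, which served as control. The 3 groups held 2 libraries each, and all were of the same cell line with the same transfection reagent. The circular RNAs named are made from the RAB3IP and CAMSAP1 genes. The design asks what each siRNA changed against control and how the knockdowns compare with each other.

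AP-1 is a dimer of basic leucine zipper (bZIP) proteins. FOS family proteins need a JUN family partner to bind DNA, whereas JUN proteins can also pair among themselves, and ATF3, BATF3 and the small MAF protein MAFF join the network through other pairings. Many of these genes are immediate early genes: kinase cascades that end in ERK, JNK and p38 act on factors already bound at their promoters, and the mRNAs appear and decay within hours of a stimulus. In epithelial cells AP-1 is known for control of proliferation, migration, stress responses and cytokine genes.

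The libraries held 37379217 to 39637733 fragments assigned to genes, so that 3 fragments, the count taken as the limit for a gene at 0, stood for 0.0757 to 0.0803 CPM (fragments of a gene scaled to the library's total). Between 13.0% and 14.9% of a library's fragments fell on its 10 most abundant genes. The groups used here are the names in the authors' deposited tables. The titles of the sample records place 4 of the 6 libraries in another group, and the genotype entries of those records name the knockdowns the other way round from the titles. Under the titles, edgeR's quasi-likelihood test called 0 members in each comparison, and 0 of all genes tested. The sources used here do not settle which names are correct, so "the siRAB3IP libraries" means those so named in the tables. The linear mRNA of RAB3IP was at 57.5 and 65.2 CPM in control, 66.0 and 65.7 in siRAB3IP and 55.9 and 61.9 in siCAMSAP1, and that of CAMSAP1 at 138 and 142, 151 and 148, and 138 and 139 CPM. These mRNAs are not the circular RNAs, so they check neither the knockdown nor the names. The labels do not say whether libraries of 1 group were grown as separate cultures. The p-values thus reflect only how these libraries scatter, and that scatter may be technical. Of the markers listed for the cell line, some were high and some near 0: KRT8 stood at 511 to 927 CPM and KRT18 at 233 to 453 CPM, while PAX2 and NEFM were at 0.0255 to 0.333 CPM in every library. The summed level of the 9 HEK293 markers was 1708 and 1684 CPM in control, 1080 and 1366 in siRAB3IP and 1378 and 1393 in siCAMSAP1. Of the markers of other cells, the blood list summed to 3.99 to 5.56 CPM with HBB at 0, the fibroblast list to 17.5 to 29.6 with DCN at most 0.0256, and the hepatocyte list to 0.126 to 0.307. The 4 endothelial markers summed to 3.51 and 4.29 CPM in control and 5.72 and 8.08 in siRAB3IP, nearly all of it VWF, with PECAM1 at 0 in all libraries.

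Of the 10 members, 8 had a promoter window in the RefSeq tables (GRCh38.p14), 10 windows in all since ATF3 and MAFF have 2 starts each. The 250 bases before the start were searched on both strands for 4 motifs. TGACGT, the core of the cyclic AMP response element, stood in windows of FOS, FOSB, FOSL2, JUND and MAFF. These are 5 of the 8 members and 5 of the 10 windows, against 7.10% of all 35116 windows of that length. TGACATCA is the element known from the JUN promoter, so its match in the JUN window was fixed beforehand. It also stood in the upstream window of ATF3, where 2.37% of all windows hold it. TATAAA, the letters of the TATA box, stood in windows of FOS, FOSB, JUNB and ATF3, 4 of the 10 windows, against 10.7%. It began 33, 30 and 31 bases before the start in FOS, FOSB and JUNB, but 230 bases before the downstream start of ATF3. The classical AP-1 site, TGACTCA, stood in 0 of the 10 windows, against 4.20%. No searched motif holds another. Matches are to letters only and say nothing about what was bound. The windows below are those of FOSL2, FOSB, JUN and ATF3, which were called higher in siRAB3IP, and of FOS, which was not. Each is printed 5′ to 3′ on the gene's strand with matches in capitals.
FOSL2 chr2:28392608-28392857 (+ strand): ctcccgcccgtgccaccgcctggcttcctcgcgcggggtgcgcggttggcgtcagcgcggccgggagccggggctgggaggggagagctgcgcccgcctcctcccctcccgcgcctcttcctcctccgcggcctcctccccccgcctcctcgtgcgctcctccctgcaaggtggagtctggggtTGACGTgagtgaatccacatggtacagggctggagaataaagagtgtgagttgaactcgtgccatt
FOSB chr19:45467746-45467995 (+ strand): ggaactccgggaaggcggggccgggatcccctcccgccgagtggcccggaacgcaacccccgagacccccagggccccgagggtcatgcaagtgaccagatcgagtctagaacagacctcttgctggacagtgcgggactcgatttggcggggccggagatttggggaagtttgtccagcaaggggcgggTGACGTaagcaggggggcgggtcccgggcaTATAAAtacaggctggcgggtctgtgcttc
JUN chr1:58784048-58784297 (- strand): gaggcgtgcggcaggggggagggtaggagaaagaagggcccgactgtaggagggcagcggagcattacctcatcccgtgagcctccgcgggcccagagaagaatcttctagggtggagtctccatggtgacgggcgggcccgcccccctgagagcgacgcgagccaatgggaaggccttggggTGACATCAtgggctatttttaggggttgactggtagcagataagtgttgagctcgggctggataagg
ATF3 chr1:212565157-212565406 (+ strand): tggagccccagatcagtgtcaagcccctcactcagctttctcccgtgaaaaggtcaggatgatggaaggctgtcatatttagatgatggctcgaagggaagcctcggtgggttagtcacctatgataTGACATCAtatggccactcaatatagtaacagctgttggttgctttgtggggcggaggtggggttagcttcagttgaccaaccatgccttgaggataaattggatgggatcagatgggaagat
FOS chr14:75278578-75278827 (+ strand): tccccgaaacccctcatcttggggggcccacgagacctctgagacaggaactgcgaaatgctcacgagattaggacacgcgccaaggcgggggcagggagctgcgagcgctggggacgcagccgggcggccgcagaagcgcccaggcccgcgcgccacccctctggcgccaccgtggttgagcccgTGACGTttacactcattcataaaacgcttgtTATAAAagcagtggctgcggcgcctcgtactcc
TGACGT began 66 bases before the start in FOSL2, 60 in FOSB and 64 in FOS. TGACATCA began 67 bases before the start in JUN and 123 bases before the upstream start of ATF3. The windows of FOS and FOSB thus share both a TGACGT and a TATAAA, 33 and 30 bases before the start.

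Compared per length of transcript in control, the JUN family stood well above the FOS family. On the TPM scale (fragments per exonic base, scaled to the same total in every library), the mean control level was 48.5 ± 0.562 for JUND (SD, n = 2 for each gene here), 37.9 ± 2.22 for JUN, 17.4 ± 2.06 for JUNB and 15.5 ± 0.492 for ATF3. FOSL1 (5.73 ± 1.03) and FOSL2 (4.92 ± 0.377) followed, and their control libraries overlapped, so these neighbours could not be ordered. MAFF (1.09 ± 0.227), BATF3 (0.688 ± 0.00892), FOS (0.564 ± 0.0261) and FOSB (0.274 ± 0.00446) came last. Between every other pair of neighbours both control libraries of the higher gene were above both of the lower. In siRAB3IP the mean TPM of ATF3 (26.6 ± 3.89) stood above that of JUNB (23.4 ± 5.10), with overlapping libraries, while in siCAMSAP1 JUNB (26.8 ± 1.14) stood above ATF3 (19.3 ± 1.02) without overlap.

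Most of the AP-1 genes were higher in the siRAB3IP libraries. In edgeR's quasi-likelihood test (adjusted p under 0.05, by Benjamini and Hochberg's method over 22331 genes), 7 of the 10 rose against control (FOSL2, ATF3, FOSL1, FOSB, JUN, JUNB and JUND) and none fell. Of all genes tested, 6.39% were called higher and 5.24% lower. Both siRAB3IP libraries were above both control libraries for 8 members, the 7 and MAFF, against 20.3% of all genes. The median log2 fold change of the 10 members was 0.67, beside -0.01 over all genes. The members were chosen with earlier results of these data known, so these counts and medians describe them and do not test them as a set. DESeq2 and limma-voom called the same 7 members higher, where 9.68% and 6.37% of all genes passed. The edgeR count was 3 without siRAB3IP replicate 1 and 4 without control replicate 2. In bulk RNA, more cells making an mRNA and more mRNA per cell cannot be told apart. The summed HEK293 markers, given above, were lower in the siRAB3IP libraries, through KRT8 and KRT18. INA went the other way, from 1.69 and 1.49 CPM in control to 4.57 and 4.12 in siRAB3IP, and VIM (216 and 267, against 227 and 326) and CDH2 (74.2 and 86.6, against 77.3 and 81.2) overlapped control. The part of these markers in the results was not tested.

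**Figure D1:**
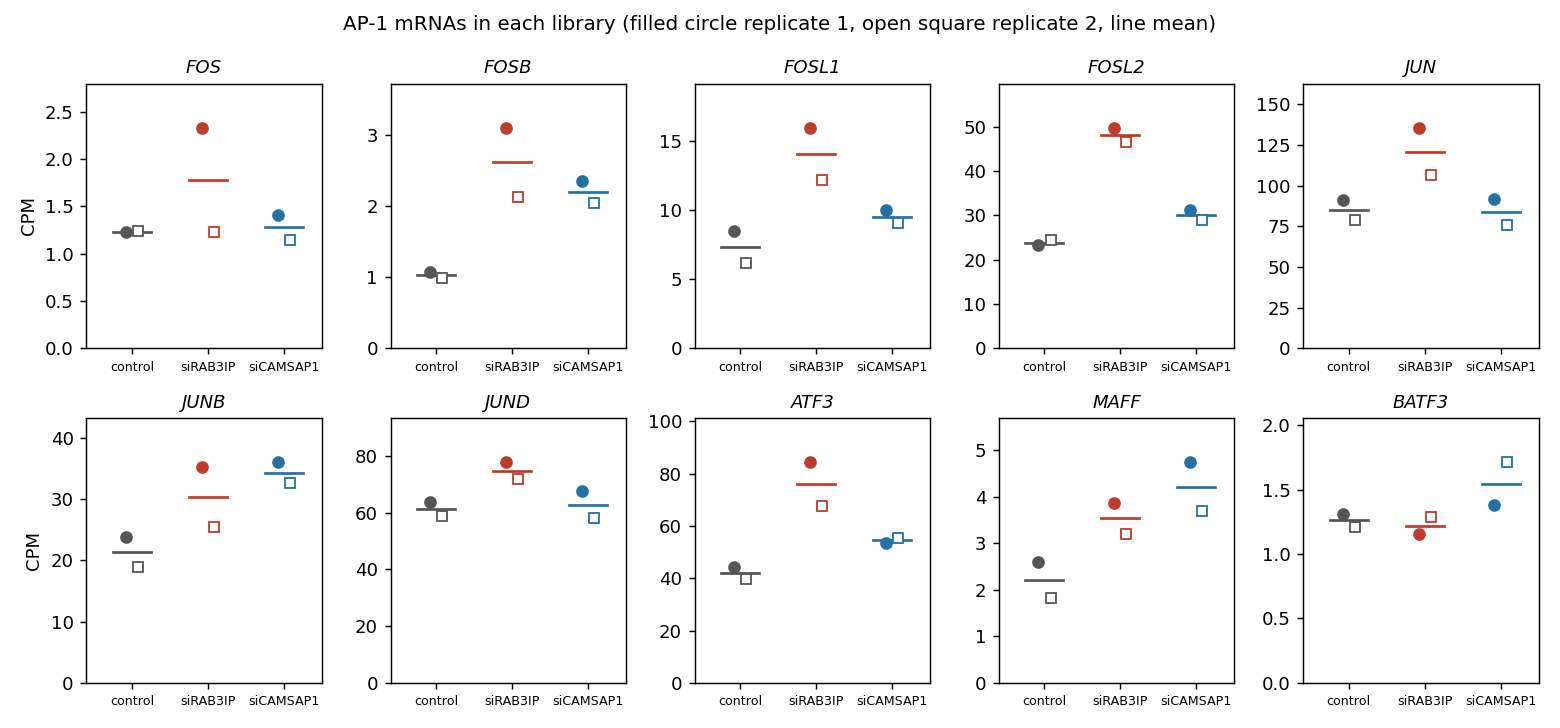
CPM of each of the 10 AP-1 genes (1 panel each, y axis from 0) by group, with a filled circle for replicate 1, an open square for replicate 2 and a line for the group mean. Both siRAB3IP libraries stand above both control libraries for 8 genes, and FOS and BATF3 overlap control.

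FOSL2 encodes FRA-2, a FOS family protein without the strong activation domain of FOS. It lies on chromosome 2 (28615315 to 28640179, hg19, + strand). FOSL2 had 23.2 and 24.3 CPM in the control libraries, 49.7 and 46.6 in siRAB3IP and 31.2 and 29.0 in siCAMSAP1. The 3 groups did not overlap, and the siRAB3IP libraries were the highest. Against control FOSL2 rose 2.12-fold in siRAB3IP, a log2 fold change of 1.08 ± 0.09 (SE; adjusted p = 3.62e-05, edgeR), with the smallest adjusted p of the members. In siCAMSAP1 the log2 difference was 0.37 ± 0.09 and missed the threshold (adjusted p = 0.083, edgeR).

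FOSL1 encodes FRA-1, the other FOS-related antigen, which is often high in migrating and transformed epithelial cells. It lies on chromosome 11 (65659520 to 65668044, - strand). FOSL1 had 8.48 and 6.18 CPM in control, 15.9 and 12.1 in siRAB3IP and 10.01 and 9.03 in siCAMSAP1. Both siRAB3IP libraries were above all others, and both siCAMSAP1 libraries were above both controls. FOSL1 rose 2.002-fold in siRAB3IP (log2 1.002 ± 0.18, adjusted p = 0.00388, edgeR). The difference in siCAMSAP1 was 0.41 ± 0.18 on the log2 scale and did not pass (adjusted p = 0.393, edgeR).

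FOSB encodes a FOS protein that also has a shorter, longer-lived form, which counts per gene do not tell apart. It lies on chromosome 19 (45971253 to 45978437, + strand). FOSB was low, with 40 and 39 fragments in the control libraries (1.07 and 0.984 CPM), 121 and 81 in siRAB3IP (3.10 and 2.13 CPM) and 92 and 80 in siCAMSAP1 (2.36 and 2.04 CPM). All 4 knockdown libraries were above both controls, and siRAB3IP and siCAMSAP1 overlapped. The rise in siRAB3IP was 2.66-fold, in fold the largest among the members (log2 1.41 ± 0.26, adjusted p = 0.00498, edgeR). Without siRAB3IP replicate 1 the adjusted p was 0.0521. In siCAMSAP1 FOSB stood 2.19-fold higher, which missed the threshold (log2 1.13 ± 0.27, adjusted p = 0.0733, edgeR).

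FOS, the founding member and a classic immediate early gene, is on chromosome 14 (75745477 to 75748933, + strand). Its libraries held 46 and 49 fragments in control, 91 and 47 in siRAB3IP and 55 and 45 in siCAMSAP1, or 1.23 and 1.24, 2.33 and 1.23, and 1.41 and 1.15 CPM. Only siRAB3IP replicate 1 stood apart, at 1.89 times the CPM of replicate 2, and the groups overlapped. FOS was not called (log2 0.60 ± 0.31 in siRAB3IP, adjusted p = 0.26, and 0.08 ± 0.33 in siCAMSAP1, adjusted p = 0.954, edgeR).

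JUN, which encodes the c-Jun protein that JNK phosphorylates, is on chromosome 1 (59246465 to 59249785, - strand). JUN had 91.2 and 79.0 CPM in control, 136 and 106 in siRAB3IP and 91.9 and 75.6 in siCAMSAP1. The siRAB3IP libraries were above all others, while siCAMSAP1 overlapped control. JUN rose 1.49-fold in siRAB3IP (log2 0.57 ± 0.13, adjusted p = 0.0158, edgeR). The log2 difference in siCAMSAP1 was 0.01 ± 0.13 (adjusted p = 0.991, edgeR).

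JUNB, a JUN protein with weaker activation than c-Jun on many promoters, is on chromosome 19 (12902310 to 12904124, + strand). JUNB had 23.8 and 18.9 CPM in control, 35.2 and 25.4 in siRAB3IP and 36.0 and 32.6 in siCAMSAP1. Both knockdowns were above both controls, and they overlapped each other. JUNB rose 1.48-fold in siRAB3IP (log2 0.57 ± 0.16, adjusted p = 0.0342, edgeR). In siCAMSAP1 the difference, 1.64-fold, was the larger of the pair but missed the threshold (log2 0.71 ± 0.16, adjusted p = 0.0533, edgeR). JUNB shares 259 exon bases with HOOK2 on the other strand, and fragments were counted without strand, so its values are uncertain to that extent. HOOK2 had 4165 fragments over the 6 libraries.

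JUND, which unlike JUN and JUNB is expressed steadily in many resting cells, is on chromosome 19 (18390563 to 18392432, - strand). JUND had 63.6 and 58.9 CPM in control, 77.7 and 71.8 in siRAB3IP and 67.6 and 58.1 in siCAMSAP1. The siRAB3IP libraries were the highest, and siCAMSAP1 overlapped control. JUND rose 1.27-fold in siRAB3IP, the smallest of the called changes (log2 0.35 ± 0.10, adjusted p = 0.0386, edgeR). In siCAMSAP1 the log2 difference was 0.07 ± 0.10 (adjusted p = 0.853, edgeR). The calls of all 3 JUN genes rested on single libraries. Without siRAB3IP replicate 1 the adjusted p was 0.158 for JUN, 0.326 for JUNB and 0.241 for JUND, and without control replicate 2 it was 0.0897, 0.204 and 0.212. That of JUND was 0.0826 without siRAB3IP replicate 2.

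ATF3 encodes a stress-induced factor of the ATF/CREB branch that pairs with JUN proteins, and lies on chromosome 1 (212738676 to 212794119, + strand). ATF3 had 44.3 and 39.8 CPM in control, 84.2 and 67.5 in siRAB3IP and 53.5 and 55.4 in siCAMSAP1. As for FOSL2, the 3 groups did not overlap and siRAB3IP was the highest. ATF3 rose 1.88-fold in siRAB3IP (log2 0.91 ± 0.11, adjusted p = 4.48e-04, edgeR). In siCAMSAP1 the difference of 0.40 ± 0.11 on the log2 scale did not pass (adjusted p = 0.14, edgeR).

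MAFF, a small MAF protein that lacks an activation domain, is on chromosome 22 (38597889 to 38612518, + strand). MAFF had 97 and 72 fragments in control, 151 and 122 in siRAB3IP and 185 and 145 in siCAMSAP1, or 2.60 and 1.82, 3.87 and 3.20, and 4.74 and 3.70 CPM. All 4 knockdown libraries were above both controls, yet neither comparison passed. The log2 difference was 0.74 ± 0.23 in siRAB3IP (adjusted p = 0.0581, edgeR) and 0.97 ± 0.23 in siCAMSAP1 (adjusted p = 0.078, edgeR). In siRAB3IP MAFF was called by edgeR with no filter on low counts (adjusted p = 0.0172) and with replicate number added to the model (0.00406). MAFF was not called there by DESeq2 (adjusted p = 0.064) or limma-voom (0.0634). With 1 library left out, its log2 difference there ran from 0.483 (without control replicate 2) to 1.057 (without control replicate 1).

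BATF3, best known for the development of dendritic cells, pairs with JUN proteins and lies on chromosome 1 (212859760 to 212873327, - strand). BATF3 had 49 and 48 fragments in control, 45 and 49 in siRAB3IP and 54 and 67 in siCAMSAP1, or 1.31 and 1.21, 1.15 and 1.29, and 1.38 and 1.71 CPM. The siRAB3IP libraries overlapped control and the siCAMSAP1 libraries were above both. BATF3 was not called (log2 0.01 ± 0.27 in siRAB3IP, adjusted p = 0.981, and 0.33 ± 0.26 in siCAMSAP1, adjusted p = 0.69, edgeR).

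**Figure D2:**
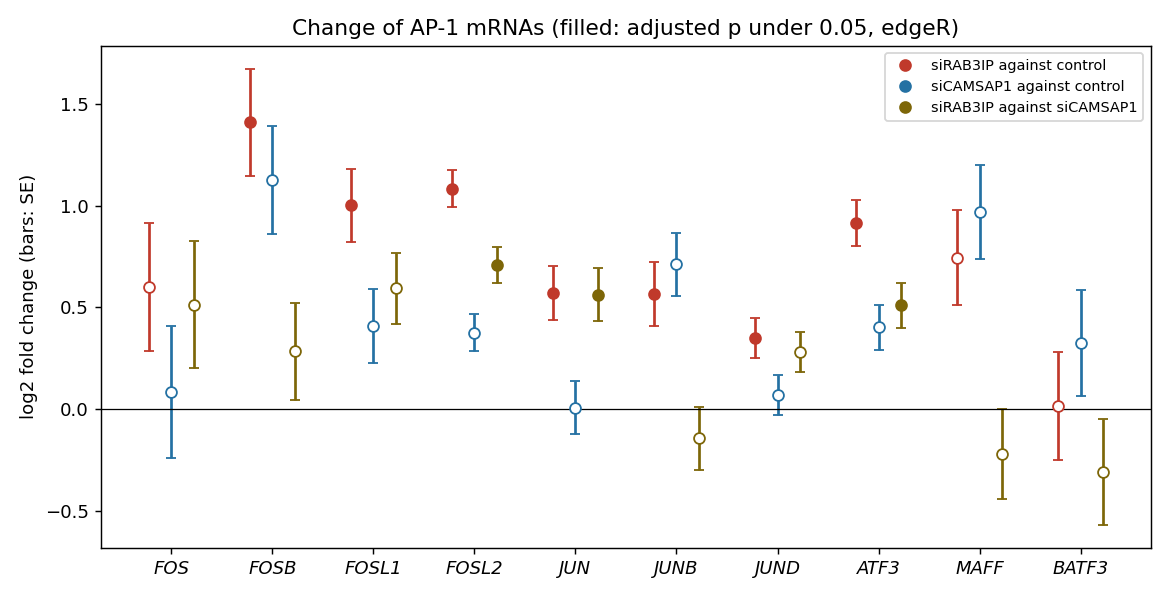
Log2 fold change (y axis; points, with bars of 1 SE) of each AP-1 gene (x axis) from edgeR in the 3 comparisons, by colour, with filled points for adjusted p under 0.05. In siRAB3IP against control 7 genes are filled, in siCAMSAP1 against control 0, and between the knockdowns 3.

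In the siCAMSAP1 libraries 7 of the 10 AP-1 genes lay above both controls, and FOS, JUN and JUND overlapped control. No member was called by edgeR's quasi-likelihood test, where 0.448% of all genes were called higher and 0.493% lower. At an unadjusted p under 0.05, 6 members were higher (FOSB, FOSL1, FOSL2, JUNB, ATF3 and MAFF), against 6.13% of all genes. Those 6 and BATF3 were the 7 with both libraries above both controls, against 17.2% of all genes. The median log2 difference of the members was 0.39, beside 0.00 over all genes. DESeq2 called FOSL2, JUNB and MAFF higher, 3 members against 1.14% of all genes it tested, and limma-voom called 0. Without the filter on low counts, 5 members passed by edgeR (FOSB, FOSL2, JUNB, ATF3 and MAFF). With replicate number added to the model, 6 passed by edgeR (the same and FOSL1). No label says that libraries of equal number were made together. More of all genes passed in both of these fits too, as given in the last section. With 1 library left out, the log2 difference of JUNB ran from 0.526 (without control replicate 2) to 0.921 (without control replicate 1). That of MAFF ran from 0.700 to 1.279, without the same libraries. The siRAB3IP and siCAMSAP1 comparisons share the 2 control libraries, so they are not independent of each other.

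Set against each other, the knockdowns differed in 3 members. FOSL2 was 1.64-fold higher in siRAB3IP than in siCAMSAP1 (log2 0.71 ± 0.09, adjusted p = 5.61e-04), JUN 1.48-fold (0.56 ± 0.13, adjusted p = 0.0193) and ATF3 1.43-fold (0.51 ± 0.11, adjusted p = 0.0133), all by edgeR. Of all genes, 4.89% were called higher and 3.96% lower in this comparison. FOSL1 stood 1.51-fold higher and just missed the threshold (adjusted p = 0.0535, edgeR). FOSL1 passed with DESeq2 (adjusted p = 0.028), which called 4 of the 8 members it gave an adjusted p, against 7.72% of all genes. With 1 library left out, its log2 difference ran from 0.369 (without siRAB3IP replicate 1) to 0.788 (without siRAB3IP replicate 2). JUND was not called (log2 0.28 ± 0.10, adjusted p = 0.102, edgeR), although both of its siRAB3IP libraries were above both siCAMSAP1 libraries, as for FOSL1, FOSL2, JUN and ATF3, 5 of 10 members against 23.3% of all genes. BATF3 was the 1 member with both siRAB3IP libraries below, against 29.9%. The difference did not pass for FOSB (0.28 ± 0.24), FOS (0.51 ± 0.31), JUNB (-0.14 ± 0.15), MAFF (-0.22 ± 0.22) or BATF3 (-0.31 ± 0.26), with adjusted p from 0.362 to 0.63 by edgeR. The call of JUN ended without siRAB3IP replicate 1 (adjusted p = 0.18) or siCAMSAP1 replicate 2 (0.117), and that of ATF3 without siRAB3IP replicate 1 (0.142) or siCAMSAP1 replicate 1 (0.0638), by edgeR. FOSL2 kept its call without each library in turn.

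The balance between the families differed between the groups. The summed TPM of FOS, FOSB, FOSL1 and FOSL2 was 11.9 and 11.04 in control, 23.3 and 19.4 in siRAB3IP and 14.7 and 13.9 in siCAMSAP1. That of JUN, JUNB and JUND was 107 and 100 in control, 142 and 120 in siRAB3IP and 117 and 104 in siCAMSAP1. The JUN family sum was therefore 8.98 and 9.09 times the FOS family sum in control, 6.10 and 6.16 times in siRAB3IP and 7.95 and 7.51 times in siCAMSAP1. The 3 groups did not overlap in this ratio, which was lowest in siRAB3IP. FOSL1 and FOSL2 made up nearly all of the FOS family in every library, with 45.3% to 54.1% for FOSL1 and 39.0% to 47.5% for FOSL2. JUNB made up 17.6% and 15.9% of the JUN family in control, 19.0% and 16.6% in siRAB3IP and 23.7% and 25.01% in siCAMSAP1. The share of JUN itself was 36.8% and 36.2% in control, 40.1% and 37.9% in siRAB3IP and 33.1% and 31.7% in siCAMSAP1. These sums and shares were not tested, since they combine the genes described above.

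**Figure D3:**
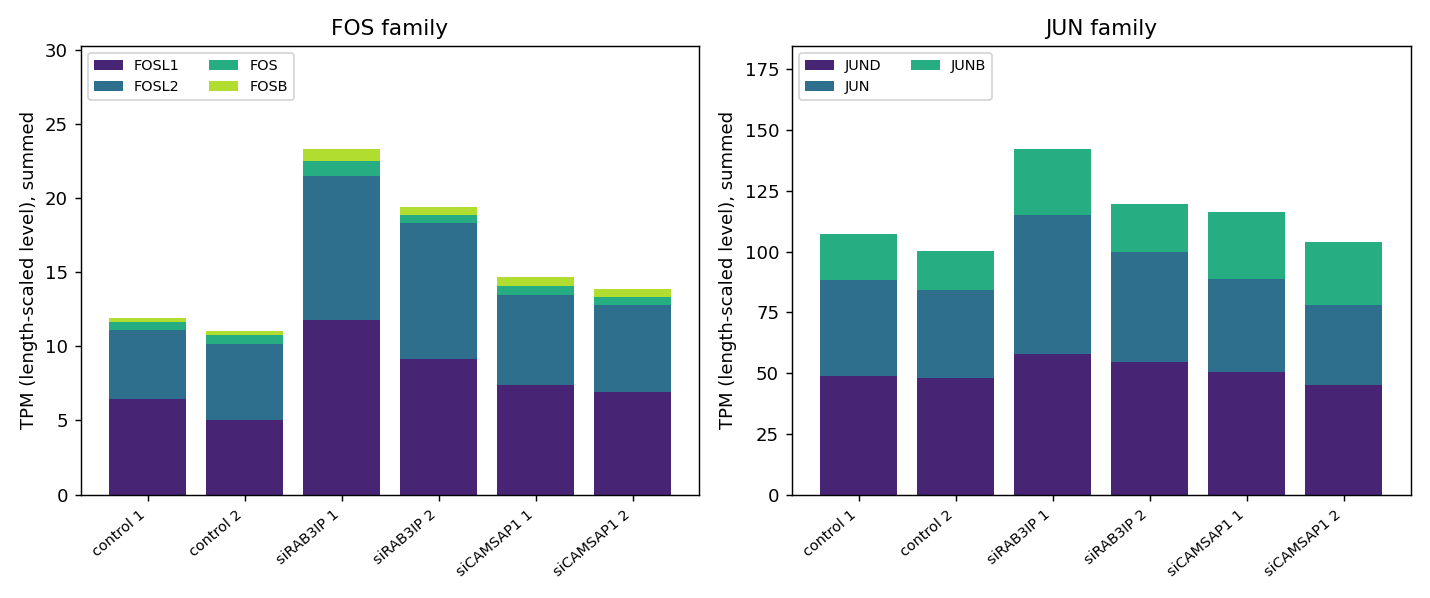
Summed TPM of the FOS family (left) and the JUN family (right) in each of the 6 libraries, stacked by gene, with both y axes from 0 and on different scales. The FOS family sum is 11.9 and 11.04 in control and 23.3 and 19.4 in siRAB3IP, mostly FOSL1 and FOSL2.

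Within each group most of the 10 members were higher in replicate 1. Replicate 1 had the higher CPM for 9 of the 10 members in siRAB3IP, and for 8 in siCAMSAP1 and 8 in control. The share of all genes higher in replicate 1 is not given, so these counts show no trait of the members. Same-numbered libraries also deviated together over 11783 genes (Pearson r 0.445 to 0.531 for the pairs of groups). In siRAB3IP the ratio of replicate 1 to replicate 2 ran from 0.898 for BATF3 to 1.89 for FOS, with 1.07 for FOSL2 and 1.25 for ATF3. Over the 6 libraries the log2 CPM of JUN and JUND moved most closely together (Pearson r = 0.973), followed by FOSL1 with ATF3 (0.971), JUNB with MAFF (0.967) and FOSL2 with ATF3 (0.953). JUN was less close to JUNB (0.388) and opposite to BATF3 (-0.646). These are descriptions over 6 libraries that share groups and replicate numbers.

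The authors' deposited tables, which list genes past their own adjusted threshold, name the same 7 members in siRAB3IP. The log2 fold changes in the authors' deposited table were 1.39 ± 0.43 for FOSB, 1.09 ± 0.12 for FOSL2, 1.01 ± 0.19 for FOSL1, 0.91 ± 0.11 for ATF3, 0.57 ± 0.09 for JUN, 0.56 ± 0.13 for JUNB and 0.36 ± 0.10 for JUND. For siCAMSAP1 the authors' deposited table lists JUNB (0.70 ± 0.13, adjusted p = 9.14e-06) and ATF3 (0.40 ± 0.11, adjusted p = 0.011), which edgeR did not call.

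Of 20 other AP-1 and bZIP partner genes tested, 4 rose and 1 fell in siRAB3IP (median log2 0.18 beside -0.01 over all genes), where 6.39% of all genes were called higher and 5.24% lower. CREB5, a JUN-binding factor of the ATF2 branch, went from 21.1 and 24.2 CPM in control to 43.4 and 45.8 (log2 1.04 ± 0.10). The small MAF gene MAFK (0.96 ± 0.13), the stress factor DDIT3 (0.55 ± 0.13) and the MAF partner BACH1 (0.33 ± 0.09) also rose, and the large MAF gene MAFA fell by 0.82 ± 0.23. In siCAMSAP1, edgeR called 0 of the 20, DESeq2 1 and limma-voom 0, with 7 at an unadjusted p under 0.05 in either direction. Over all genes edgeR called 0.448% higher and 0.493% lower there, DESeq2 1.14% higher and limma-voom 0.425% higher. At an unadjusted p under 0.05 by edgeR, 6.13% of all genes were higher, and the share lower is not given. Between the knockdowns CREB5 (0.79 ± 0.10), ATF4 (0.46 ± 0.09), BACH1 (0.46 ± 0.09) and DDIT3 (0.50 ± 0.13) were higher in siRAB3IP, 4 of 20 beside 4.89% over all genes. The adjusted p of the partners named for siRAB3IP against control ran from 1.11e-04 for CREB5 to 0.0386 for MAFA, by edgeR. That for DDIT3 was 0.15, 0.115 and 0.0603 without control replicate 2, siRAB3IP replicate 1 or siRAB3IP replicate 2, and that for BACH1 was 0.0504 to 0.175 without any 1 control or siRAB3IP library. For MAFA it was 0.275 without control replicate 1, 0.265 without siRAB3IP replicate 2 and 0.0516 with limma-voom. Between the knockdowns the calls ended without 1 of the compared libraries for ATF4 (0.0833, siRAB3IP replicate 1), for BACH1 (0.0757 and 0.0882, siRAB3IP replicate 2 and siCAMSAP1 replicate 1) and, without any 1 of the 4, for DDIT3 (0.0548 to 0.191).

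Of 34 kinases of the MAPK cascades, which act upstream of AP-1, 3 rose and 1 fell in siRAB3IP (median log2 0.05). That is 11.8% of them, near the 6.39% higher and 5.24% lower over all genes. The p38-activating kinase MAP2K3 (0.52 ± 0.10), the ERK-activating kinase MAP2K1 (0.41 ± 0.09) and MAP3K14, known as the NF-kB-inducing kinase (0.47 ± 0.13), rose. MAP2K6, also a p38-activating kinase, fell by 0.89 ± 0.21. Each of the 4 calls ended without control replicate 2 (adjusted p from 0.0603 to 0.2, edgeR), those of MAP2K1, MAP2K6 and MAP3K14 without siRAB3IP replicate 1 (0.0819, 0.123 and 0.231) and those of MAP2K3 and MAP3K14 without siRAB3IP replicate 2 (0.052 and 0.0504). In siCAMSAP1 edgeR called 0 of the 34, DESeq2 3 and limma-voom 1, with 9 at an unadjusted p under 0.05 in either direction. Over all genes edgeR called 0.448% higher and 0.493% lower there, DESeq2 1.14% higher and limma-voom 0.425% higher. At an unadjusted p under 0.05 by edgeR, 6.13% of all genes were higher, and the share lower is not given. Between the knockdowns 3 were higher in siRAB3IP and 1 lower, beside 4.89% and 3.96% over all genes (MAP2K4 0.37 ± 0.08, MAP2K3 0.37 ± 0.10, MAP3K4 0.29 ± 0.08, and the ERK gene MAPK3 at -0.34 ± 0.09). Each of those calls was lost without at least 1 library.

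Another list held 16 factors that act at the FOS and JUN promoters. They were the SRF, TCF and CREB groups, with MEF2A, MEF2C, MEF2D, STAT3, CREBBP and EP300 besides. In siRAB3IP edgeR called 0 of the 16, DESeq2 2 and limma-voom 1. DESeq2 and limma-voom called 9.68% and 6.37% of all genes higher there. By edgeR 4 were at an unadjusted p under 0.05, which cannot be weighed without the share of all genes at that level. Over all genes 6.39% were called higher and 5.24% lower in siRAB3IP, and 0.448% and 0.493% in siCAMSAP1. In siCAMSAP1 STAT3, which mediates cytokine signals, rose (91.8 and 93.8 CPM in control, 124 and 116 in siCAMSAP1, log2 0.40 ± 0.08) and MEF2C fell by 0.67 ± 0.13. The STAT3 call ended without any 1 of the 6 libraries (adjusted p from 0.0508 to 0.29, edgeR), and that of MEF2C without control replicate 2, siCAMSAP1 replicate 1 or siCAMSAP1 replicate 2 (0.219, 0.18 and 0.0591). Between the knockdowns STAT3 (-0.47 ± 0.08) and the TCF gene ELK3 (-0.41 ± 0.10) were lower in siRAB3IP, and STAT3 kept that call without each library in turn, ELK3 not. Of 15 genes of AP-1 protein turnover and mRNA decay, TRIB2, a pseudokinase that brings substrates to a ubiquitin ligase, was the 1 that fell in both knockdowns, by 0.49 ± 0.12 in siRAB3IP and 0.93 ± 0.13 in siCAMSAP1. A count of 1 in 15 (6.67%) is near the share of all genes called lower in siRAB3IP. In siRAB3IP its call ended without siRAB3IP replicate 1 (adjusted p = 0.199) or either control library (0.0662 and 0.0825), by edgeR. Between the knockdowns the mRNA decay factor ZFP36L1 was lower in siRAB3IP (-0.39 ± 0.11, adjusted p = 0.0407, edgeR), a call lost without any 1 of the 4 compared libraries (0.0917 to 0.236).

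Of 40 genes known as AP-1 targets that were tested, 8 rose and 3 fell in siRAB3IP (median log2 0.25), where 6.39% of all genes were called higher and 5.24% lower. The share that fell is near that of all genes. Among those that fell was MMP2, at 3.08 and 4.77 CPM in control and 1.85 and 2.28 in siRAB3IP (log2 -0.86 ± 0.25, adjusted p = 0.0398, edgeR). MMP2 was added after its values were seen, and its results without single libraries are not given. The adhesion receptor CD44 rose from 78.5 and 77.3 CPM to 176 and 153 (log2 1.14 ± 0.09, adjusted p = 2.01e-05, edgeR). The chemokine CXCL8 went from 3.42 and 2.25 CPM to 31.6 and 12.6 (3.03 ± 0.36), with unequal siRAB3IP libraries. CCND1, the cyclin D1 gene, which AP-1 is known to activate, fell from 111 and 127 CPM to 49.2 and 51.2 (-1.18 ± 0.08, adjusted p = 7.65e-06, edgeR), and the chromatin factor HMGA2 fell by 0.73 ± 0.09. The EGF family ligand HBEGF (0.94 ± 0.12) and the collagenase MMP13 (1.74 ± 0.28, 1.53 and 0.782 CPM in control, 3.46 and 3.91 in siRAB3IP) were singled out after their values were seen, and rose as well. All 6 of these calls held without each library in turn. In siCAMSAP1, CD44 rose (0.44 ± 0.09) and the metallothionein MT2A fell by 0.66 ± 0.14, and each call ended without any 1 of the 4 compared libraries (adjusted p from 0.0501 to 0.177 and from 0.053 to 0.235, edgeR). Between the knockdowns 9 targets were higher in siRAB3IP and 3 lower, beside 4.89% and 3.96% over all genes. CD44 was higher (0.70 ± 0.09), while CCND1 (-1.16 ± 0.08), the scaffold gene AKAP12 (-0.51 ± 0.08) and the haem oxygenase HMOX1 (-0.86 ± 0.14) were lower, each kept without every library in turn.

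Some of the other immediate early genes rose in siRAB3IP. Of 27 tested, 9 rose and 0 fell (median log2 0.28), beside 6.39% higher and 5.24% lower over all genes, and the others did not pass. The stress phosphatase subunit PPP1R15A went from 76.4 and 65.5 CPM to 163 and 139 (log2 1.15 ± 0.11), IER3 from 20.1 and 19.0 to 36.6 and 39.4 (1.02 ± 0.10), the NF-kB inhibitor NFKBIA from 41.3 and 39.5 to 88.4 and 65.9 (0.998 ± 0.12) and the growth arrest gene GADD45B from 81.7 and 58.9 to 199 and 136 (1.31 ± 0.18). In siCAMSAP1, 4 rose and 0 fell (median 0.34), beside 0.448% higher and 0.493% lower over all genes: NFKBIA (0.86 ± 0.12), IER3 (0.74 ± 0.10), PPP1R15A (0.64 ± 0.11) and the matricellular CCN1 (0.95 ± 0.18). There the calls of IER3 and NFKBIA held without each library, that of PPP1R15A ended without control replicate 2 (adjusted p = 0.092, edgeR) or siCAMSAP1 replicate 1 (0.0689), and that of CCN1 without control replicate 1 (0.0845) or siCAMSAP1 replicate 2 (0.146). Between the knockdowns 4 were higher in siRAB3IP and 2 lower (4.89% and 3.96% over all genes), led by the kinase SGK1 (0.61 ± 0.10, kept without each library), PPP1R15A (0.51 ± 0.11), the MAPK phosphatase DUSP1 (0.37 ± 0.09) and the NF-kB feedback gene TNFAIP3 (0.81 ± 0.19), the last 3 lost without siRAB3IP replicate 1 (0.109, 0.183 and 0.197). BACH1, DDIT3, MAFK, MAP2K1, MAP3K14, MAP3K4, MEF2C, ELK3, CD44, CCND1, HMGA2, IER3 and TNFAIP3 share exon bases with a gene on the other strand, so their values are uncertain under unstranded counting. DDIT3 shares 355 of its 1178 exon bases with MARS1, which had 40243 fragments beside 3223 for DDIT3.

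**Figure D4:**
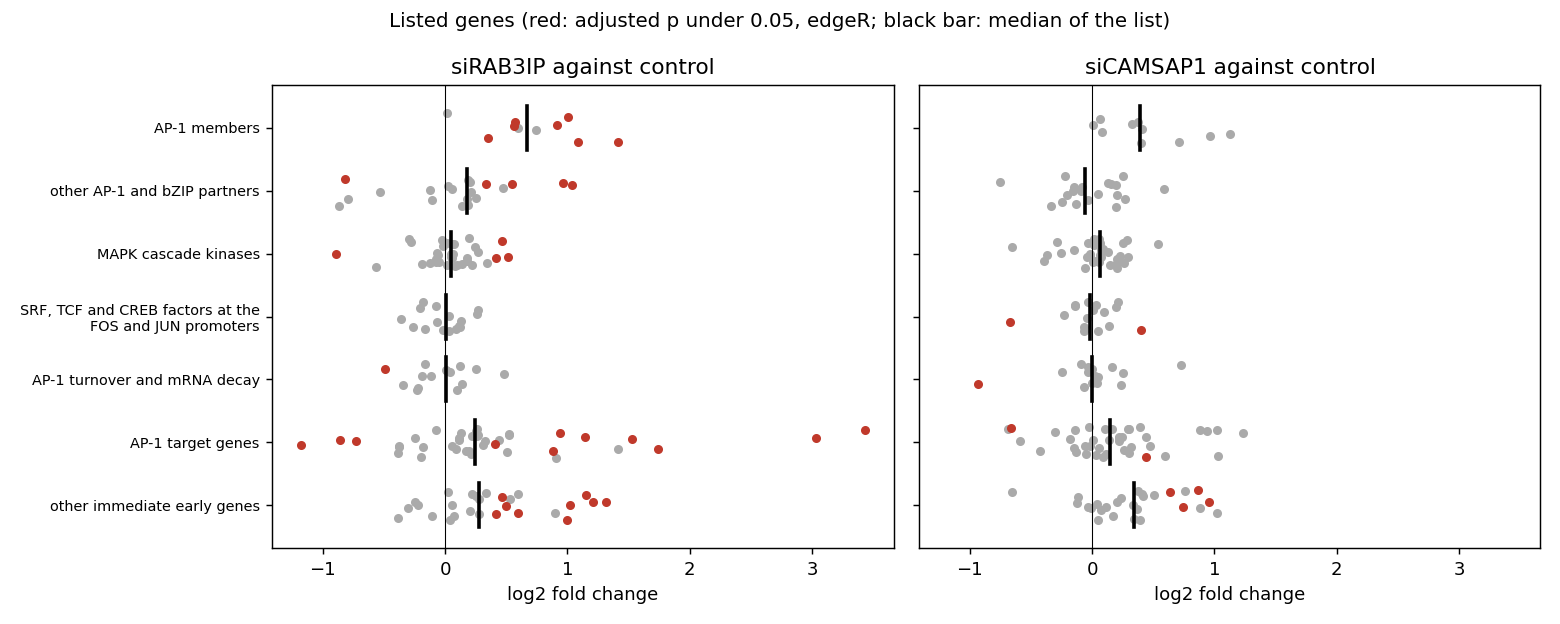
Log2 fold change (x axis) of every tested gene in the AP-1 list and the 6 related lists (y axis), 1 point per gene, for siRAB3IP and siCAMSAP1 against control, with called genes in red, list medians as black bars and points spread vertically for sight only. Of the lists drawn the AP-1 list has the highest median in each panel, 0.67 and 0.39. All 10 members lie above 0, though with upper-quartile scaling BATF3 (siRAB3IP) and JUN (siCAMSAP1) lay at -0.011 and -0.017. The members and lists were chosen with earlier results of these data known, so this order of medians is a description only.

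The genes whose log2 CPM followed each called member most closely over the 6 libraries came from many classes. Of 11559 genes at or above 5 CPM on average, they were RNF4, MFHAS1 and CFL2 for FOSL2 (Pearson r 0.997 for each), SLC25A38, JMJD6 and CXCL8 for ATF3 (0.996, 0.996 and 0.994), and C12orf29, RELT and POLE3 for FOSL1 (0.993, 0.992 and 0.990). For FOSB they were MAPRE1, CYTOR and ABHD12 (0.996, 0.996 and 0.992), and for JUNB NFKB1, SPHK1 and FJX1 (0.988, 0.984 and 0.982). For JUN they were RPL32, AMD1 and CKMT1B (0.995, 0.992 and 0.991), and for JUND RABGGTA, YBX1 and DNAJC25 (each 0.988). RPL32 and YBX1 have processed pseudogenes and CKMT1B a near-identical copy, so their counts are uncertain. Over all genes compared, 170 (1.47%) followed FOSL2 at r above 0.95, and 40 (0.346%) followed JUNB.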

How the data were processed

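Counts of fragments per gene were deposited by the authors. Per the file headers, they were made with featureCounts 1.6.0 from primary alignments of which each end mapped, with no strand option, and the gene lengths come from the same file. STAR, DESeq2 and hg19 are named in the submitters' processing notes, without versions. The deposited normalized signal is the counts divided by 1 size factor per library. It served only to match the names in the authors' tables to count columns, within 1e-09 in log2 ratio. Those tables also give the authors' log2 fold changes and adjusted p-values, for genes past a threshold only.

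Gene symbols came from the reference annotation tables for 52181 of 63677 genes. CPM is fragments of a gene scaled to the total assigned, and TPM also divides by exonic length. Coordinates of genes are hg19, as in the count file. Tests used edgeR 4.0.16 in R 4.3.3 (TMM, its default filter, quasi-likelihood, all 3 groups in 1 model, 3 residual degrees of freedom) for 22331 genes, with Benjamini-Hochberg adjustment. Folds come from that fit, and SE is the standard error of a log2 fold change. The 15 alternatives per comparison included other scalings and filters, DESeq2 1.42.0, limma-voom (limma 3.58.1), a replicate block, the groups of the sample records, and leaving out each library. The scripts were tested on simulated data.

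The members and the gene lists were chosen with earlier results of these data known. Named genes are all members, up to 4 called genes per related list and comparison by smallest p, and the 3 genes most alike each called member by Pearson r of log2 CPM (prior count 2, mean of at least 5 CPM). MAFA, MMP2, HBEGF and MMP13 fall outside that rule and were added after their values were seen. Promoter windows are RefSeq, GRCh38.p14, and their coordinates are not those of hg19. Python 3.11.15 with numpy 2.4.6, pandas 2.3.3, scipy 1.17.1 and matplotlib 3.10.9 made the tables and plots.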

Additional observations from a re-analysis of the deposited data

How the results depend on the processing

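In siRAB3IP against control, members called went from 7 to 0 with the groups of the sample records and ran from 3 to 8 when 1 library was left out. FOSL1, FOSL2 and ATF3 kept their calls without each library in turn. With a replicate block 8 members were called, the 7 and MAFF (adjusted p = 0.00406, edgeR). All genes called went from 2597 to 5371 with the replicate block and 0 with the sample records, and from 1034 to 2491 with 1 library left out. In siCAMSAP1, members called went from 0 to 5 with no filter on low counts, 1 with the compared groups alone, 6 with the replicate block (FOSB, FOSL1, FOSL2, JUNB, ATF3 and MAFF) and 3 with DESeq2, and from 0 to 2 with 1 library left out. All genes there went from 210 to 560, 1408 with the block, 360 with DESeq2 and 0 with the sample records, and from 67 to 210 with 1 library left out. Between the knockdowns, members went from 3 to 5 with the replicate block and 0 with the sample records, and from 1 to 4 with 1 library left out. All genes went from 1977 to 4630 with the block and 0 with the records, and from 620 to 2296 with 1 library left out. Same-numbered libraries deviated together over 11783 genes (r 0.450, 0.531 and 0.445 for the pairs of groups). No label says that equal numbers mark libraries made together, and each group has only 2 numbers. The block was therefore kept as an alternative and not used as the main design. The filter at a mean of 5 CPM leaves FOS, FOSB, MAFF and BATF3 untested. The 7 calls in siRAB3IP stood under RLE and upper-quartile scaling, DESeq2 and limma-voom.

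Grouped by the sample records, log2 differences changed sign, each with an adjusted p of 1. For circRAB3IP against control they were -0.48 for FOS, -0.37 for FOSB, -0.64 for FOSL1, -0.44 for FOSL2, -0.46 for JUN, -0.14 for JUNB, -0.21 for JUND, -0.51 for ATF3 and -0.021 for MAFF. For circCAMSAP1 against control they were -0.60 for FOS, -0.029 for FOSB, -0.23 for FOSL1, -0.34 for JUN, -0.045 for JUNB, -0.14 for JUND and -0.086 for ATF3. Between the knockdowns they were -0.34 for FOSB, -0.41 for FOSL1, -0.48 for FOSL2, -0.12 for JUN, -0.069 for JUND and -0.42 for ATF3. Under the other alternatives, 14 values of members that were not called changed sign. With 1 library left out, BATF3 ran from -0.069 to 0.105 in siRAB3IP against control, and in siCAMSAP1 against control FOS ran from -0.085 to 0.232, JUN from -0.155 to 0.150 and JUND from -0.0597 to 0.182. Between the knockdowns FOS ran from -0.034 to 0.910, FOSB from -0.031 to 0.540 and JUNB from -0.413 to 0.081. With upper-quartile scaling BATF3 was at -0.011 in siRAB3IP and JUN at -0.017 in siCAMSAP1. JUN there was at -0.0095 under the filter at 5 CPM and -0.00025 with the compared groups alone. The cause of these changes was not tested.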
